A study of Mus musculus with 6 samples.

Results

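The endocrine lineage transcription factors described here are 10 genes, Pdx1, Nkx6-1, Nkx2-2, Neurod1, Isl1, Pax6, Rfx6, Insm1, Myt1 and Mnx1, out of 23087 genes with 1 locus in the deposited table. They were chosen by name, and all 10 had a value in every library. RNA was measured in FAC-sorted pancreatic beta cells, which make insulin, from female mice on chow whose strain background was mixed 129J-C57BL/6. Wild-type (WT) mice were compared with mice in which the gene of the transcription factor FoxO1 is deleted from beta cells (IKO), where Cre recombinase under the rat insulin promoter (RIP-Cre) excised the floxed gene. Whether the WT mice carried the Cre transgene or a floxed allele is not given in the sources used here. Each genotype was sampled at 3 months nulliparous, at 12 months nulliparous and at 12 months multiparous, after 3 pregnancies. The multiparous WT library is labelled NGT and the multiparous IKO library DM, and what those labels mark cannot be told apart from parity within a genotype or from genotype between the multiparous libraries. Each of the 6 groups was 1 library, and the number of mice behind a library is not given in the sources used here. In such bulk samples fewer cells of a type and less RNA per cell cannot be told apart.

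These factors form the regulatory network that turns pancreatic progenitors into hormone-producing cells and then keeps mature islet cells what they are. Endocrine progenitors briefly express Neurog3, which switches on Neurod1, Insm1, Myt1 and Rfx6, whereas Pdx1, Nkx6-1 and Mnx1 come to mark beta cells, and Isl1 and Pax6 are kept in all hormone-producing islet cells. In mouse beta cells several of them bind the insulin genes directly, Pdx1 and other homeodomain proteins at TAAT-bearing elements and NeuroD1, a basic helix-loop-helix protein, at E-boxes. Loss of this network is a known feature of dedifferentiating beta cells.

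Promoter sequence was available from RefSeq (GRCm38.p6) for 9 of the 10 genes, with 12 start sites between them, and the 250 bases before each start were searched on both strands for 3 motifs. GTAAACA, the forkhead motif that FoxO proteins bind, was found before 1 of the 12 starts, an internal start of Myt1, against 3.17% of all 32851 promoters. CAGATG, an E-box of the type NeuroD1 binds, was found before 1, that of Nkx2-2, against 14.4%. TAAT, the homeodomain core, was found before 9, against 54.9%. Matches to different motifs did not overlap in these windows, and a match describes letters, not binding. The sequences of 4 genes are printed 5′ to 3′ on the gene's strand. Isl1 and Nkx6-1 are shown because they differed in opposite directions with parity, and Nkx2-2 and Myt1 because they hold the E-box and the forkhead motif. Capitals mark TAAT (or ATTA) in Isl1, CAGATG (as CATCTG) in Nkx2-2 and GTAAACA in Myt1, other TAAT letters in Nkx2-2 and Myt1 are left in lower case, and the Nkx6-1 window holds none of the 3 motifs. They lie at chr13:116309689-116309938 (minus strand), chr5:101664712-101664961 (minus), chr2:147186403-147186652 (minus) and chr2:181766779-181767028 (plus).
Isl1: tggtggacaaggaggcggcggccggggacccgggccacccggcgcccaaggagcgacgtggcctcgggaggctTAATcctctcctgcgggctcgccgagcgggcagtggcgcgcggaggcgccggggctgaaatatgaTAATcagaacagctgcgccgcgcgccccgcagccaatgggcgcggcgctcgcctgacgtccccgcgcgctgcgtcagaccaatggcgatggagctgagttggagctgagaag
Nkx6-1: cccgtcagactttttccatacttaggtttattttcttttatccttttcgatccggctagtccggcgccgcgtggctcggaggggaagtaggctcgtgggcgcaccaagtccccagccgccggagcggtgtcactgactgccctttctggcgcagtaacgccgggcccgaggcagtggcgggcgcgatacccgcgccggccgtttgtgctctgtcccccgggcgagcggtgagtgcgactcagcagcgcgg
Nkx2-2: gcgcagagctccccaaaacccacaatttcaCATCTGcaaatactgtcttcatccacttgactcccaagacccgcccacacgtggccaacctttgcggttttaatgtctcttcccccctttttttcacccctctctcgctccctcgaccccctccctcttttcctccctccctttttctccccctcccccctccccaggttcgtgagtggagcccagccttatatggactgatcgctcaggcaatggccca
Myt1: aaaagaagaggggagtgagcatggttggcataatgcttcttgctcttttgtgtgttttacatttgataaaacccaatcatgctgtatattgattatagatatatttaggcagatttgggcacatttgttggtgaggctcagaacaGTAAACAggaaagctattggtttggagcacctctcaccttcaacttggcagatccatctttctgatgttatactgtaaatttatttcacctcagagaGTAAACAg
The forkhead motif occurs 2 times in the Myt1 window. The deposited value of Myt1 pools its start sites, so the internal start has no value of its own.

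All levels are in FPKM, a fragment count divided by transcript length and library size, so levels of different genes can be set side by side. Read counts were not used here and depth is unknown. The deleted gene checked the genotype labels: Foxo1 (chromosome 3, 52268337 to 52350109, mm10) was at 5.67, 7.62 and 8.93 FPKM in the 3 WT libraries and at 0.410, 0.410 and 0.656 in the 3 IKO libraries. Of 10 beta cell markers 7 had values above 0, with a summed level of 1203 to 1592 FPKM. G6pc2 made up 540 to 877 FPKM of that sum. Ins1, Ins2 and Iapp were listed at 0 in all 6 libraries. That 0 cannot be taken as their level in cells that make insulin, and its reason is not given in the sources used here. Among the libraries, that of 12-month nulliparous WT mice stood apart. Its log2 values correlated across genes at 0.955 to 0.961 with theirs, and its deviation from the gene means went with transcript length at a Spearman rho of -0.366, against 0.103 to 0.345 in the others; genes are not independent replicates. Its alpha, delta and pancreatic polypeptide or ghrelin cell markers summed to 1124, 616 and 1536 FPKM, against 339 to 777, 157 to 252 and 431 to 663 in the other libraries, and acinar markers to 94.1, against 4.49 to 34.5. The acinar factor Ptf1a was at 0 everywhere. The main fitted differences that rest on this library are given with and without it.

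Pax6, a paired-box and homeodomain factor required for hormone gene expression, had the highest level of the 10 genes in every library, at 143, 127 and 141 FPKM for WT and 147, 137 and 144 for IKO (3 months, 12 months nulliparous, multiparous). Below it Neurod1 (87.2 to 99.2 FPKM), Insm1 (82.7 to 106.6), whose zinc-finger product recruits the demethylase Kdm1a, and Nkx6-1 (69.8 to 106) overlapped. Nkx2-2, an NK homeodomain factor that represses other islet fates, lay at 60.5 to 75.05 FPKM, Pdx1 at 51.1 to 66.4 and Isl1 at 50.4 to 71.1, again overlapping. Rfx6, a winged-helix factor acting downstream of Neurog3, followed at 19.3 to 32.5 FPKM. Myt1, a zinc-finger factor that promotes endocrine differentiation, lay at 13.5 to 16.3 and Mnx1, a homeodomain factor needed for beta cell fate, at 8.60 to 11.3. The last 3 did not overlap with any other of the 10. Mean levels lay above those of 75.1% (Mnx1) to 98.9% (Pax6) of all genes.

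**Figure D1:**
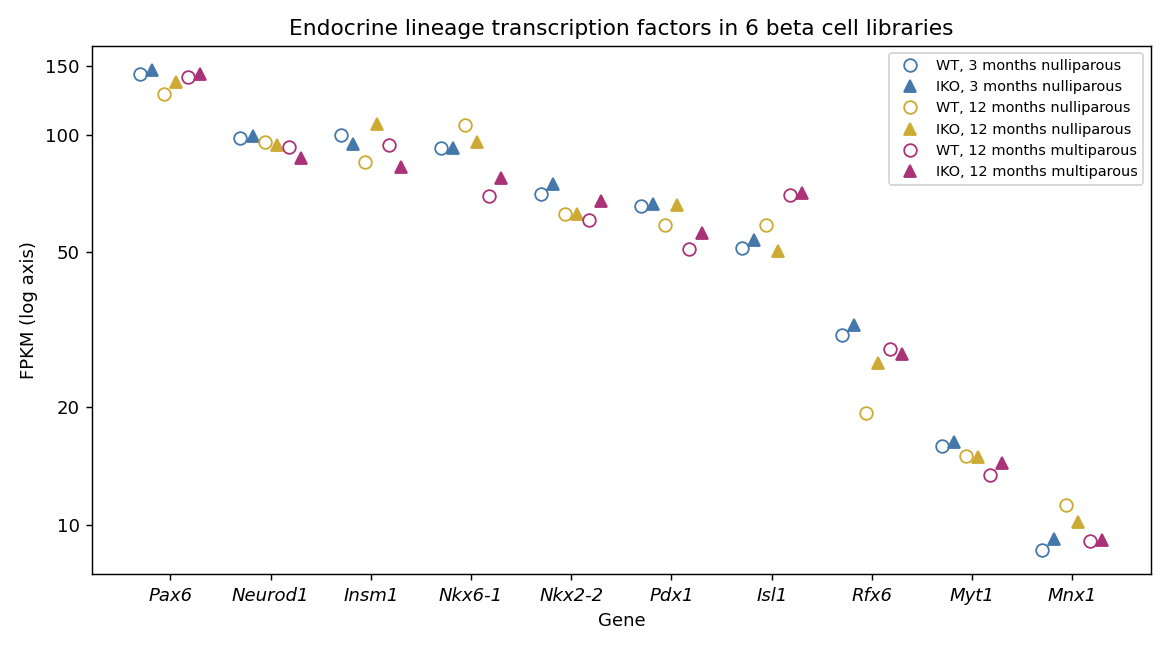
FPKM on a log axis for each of the 10 genes in each of the 6 libraries, genes ordered by mean level; circles are WT, triangles IKO, and colours mark the stage. Pax6 was highest in every library, and the 2 multiparous values of Isl1, at 70.1 and 71.1 FPKM, lie above its nulliparous ones while those of Nkx6-1 lie below.

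The paralogs of these genes were expressed unevenly. The zinc-finger factor St18, of the Myt1 family, was at 27.3 to 32.5 FPKM in 5 libraries and at 18.5 in the 12-month nulliparous WT library, above Myt1 itself, and Myt1l was at 5.02 to 5.75. Nkx6-2 (at most 0.11 FPKM), Nkx6-3 (at most 0.01), Neurod2 (at most 0.01) and Pax4 (at most 0.02) stayed near 0. Neurog3, the progenitor factor upstream of the network, was at 0.28 to 0.46 FPKM in all 6 libraries.

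In terms of spread, the 10 genes ranged over 0.18 (Neurod1) to 0.72 (Rfx6) on the log2(FPKM + 1) scale across the 6 libraries, with a median of 0.36 against 0.41 for the 8028 genes averaging at least 5 FPKM whose symbols had not been turned into dates. Without the 12-month nulliparous WT library the median range was 0.31 for the 10 genes and 0.19 for all genes. Isl1, at a range of 0.49, then exceeded 92.3% of genes, and Nkx6-1, at 0.45, exceeded 90.9%. Pax6 was the steadiest, at 137 to 147 FPKM over those 5 libraries and a range larger than that of 12.4% of genes.

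Loss of FoxO1 came with little difference in these factors at 3 months, as in genes at large. The median size of the log2 ratio was 0.055 for the 10 members and 0.050 for all genes compared. Pdx1, the master regulator of pancreas formation and insulin transcription, was at 65.6 FPKM (WT) and 66.4 (IKO), and Nkx6-1, which secures beta cell fate against other islet fates, at 92.7 and 92.3. Neurod1 was at 97.9 and 99.2 FPKM and Isl1 at 51.1 and 53.9. The largest log2 ratio among the 10 genes was 0.09 in size (Mnx1, 8.60 and 9.20 FPKM). No member reached a log2 ratio of 0.32 in size, the smaller of the thresholds used for pairs, against 1.34% of 8114 genes compared in that pair.

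Between the multiparous libraries, too, no member reached that size, against 4.03% of 8163 genes. Nkx2-2 was at 60.5 FPKM (WT) and 67.6 (IKO), Nkx6-1 at 69.8 and 77.6 and Pdx1 at 51.1 and 56.0, with log2 ratios of 0.16, 0.15 and 0.13. Insm1 was lower in IKO, at 94.0 and 82.7 FPKM, and Neurod1 at 93.2 and 87.2. Pdx1, Nkx6-1 and Mnx1, the members that mark beta cells, were not lower in the library labelled DM than in the one labelled NGT.

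At 12 months nulliparous 1 member passed a log2 ratio of 0.32, against 45.7% of 8349 genes. It was Rfx6, at 19.3 FPKM (WT) and 26.1 (IKO), a log2 ratio of 0.41. Insm1 stopped just short of the threshold at 0.317, with 85.3 and 106.6 FPKM, and Isl1 was lower in IKO, at 58.9 and 50.4. This pair holds the WT library that stood apart, where Rfx6 took its lowest value and Nkx6-1 and Mnx1 took their highest. How far the differences of that library enter these values was not tested.

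Fitted over the 3 stages with limma on log2(FPKM + 1), with additive terms for genotype and stage, the genotype differences of the 10 genes ran from -0.04 (Isl1, SE 0.11) to 0.15 (Rfx6, SE 0.12). No member was called at an adjusted p under 0.05, as was 0% of all 11131 genes tested, and Foxo1 itself stood at an adjusted p of 0.0757. At an unadjusted p under 0.05, limma listed 180 genes (1.62%) and no member. Without the 12-month nulliparous WT library the Rfx6 difference was 0.019, and the 10 genes ran from -0.13 (Insm1, adjusted p = 0.433) to 0.12 (Nkx2-2, adjusted p = 0.428). Those 2 members were then at an unadjusted p under 0.05 in limma, as were 1281 of 11131 genes. The fit has 2 residual degrees of freedom, so differences of this size could not be told from the spread between libraries. In none of the 10 genes did all 3 IKO libraries lie on one side of all 3 WT libraries, which held for 5.36% (3.15% higher, 2.21% lower) of the 8042 genes averaging at least 5 FPKM. The signs for Nkx6-1, Neurod1, Isl1 and Mnx1 turned from negative to positive after rescaling without the 20 highest genes, which moved the median of all genes from 0.02 to 0.06.

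**Figure D2:**
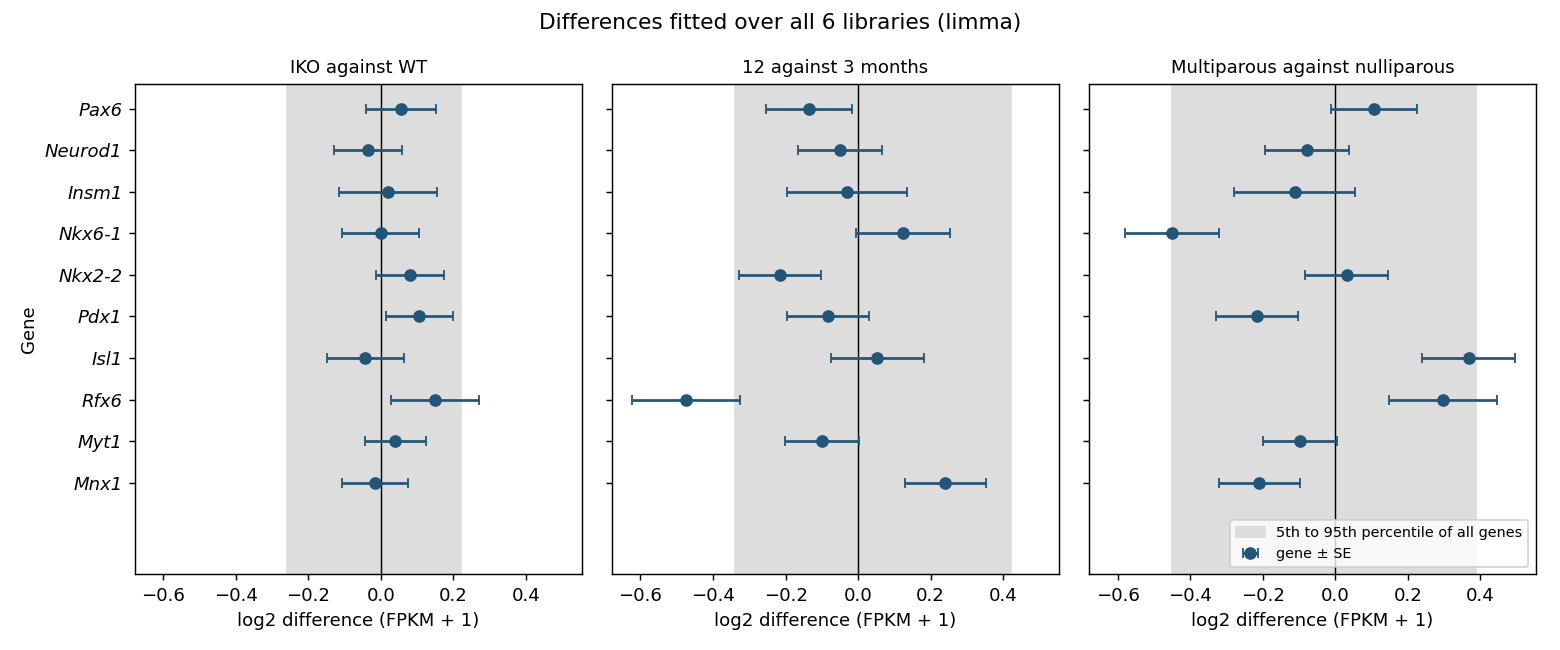
Log2 differences from the limma fit over all 6 libraries, with SE, for each of the 10 genes in the genotype, age and parity contrasts; the grey band spans the 5th to the 95th percentile of all 11131 genes. For genotype all 10 estimates lie inside the band of -0.26 to 0.22, while Rfx6 lies below it for age.

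With age, Nkx2-2, Neurod1, Rfx6 and Myt1 were higher in both 3-month libraries than in all 4 libraries at 12 months. Groups did not overlap in that direction for 6.11% of 8042 genes, and in the opposite direction for 9.18% of genes and for no member. The 12-month side holds the multiparous libraries, so age and parity are mixed in these groups. Nkx2-2 was at 70.7 (WT) and 75.05 FPKM (IKO) at 3 months, 62.6 in both older nulliparous libraries, and 60.5 and 67.6 in the multiparous ones. Myt1 was at 15.9 and 16.3, then 15.02 and 14.9, then 13.5 and 14.4 FPKM. Neurod1 differed least, at 97.9 and 99.2, then 96.2 and 94.2, then 93.2 and 87.2 FPKM, and its groups overlapped after rescaling by the median ratio, as those of Myt1 did once the trend with transcript length and GC was removed. Pdx1 was added under the median ratio, and Pdx1 and Pax6 were added, for 6 members in all, after rescaling without the 20 highest genes. That rescaling moved the median age difference of all genes from -0.01 to -0.10. The share of all genes was not computed under any rescaling, so the added members are no result about these genes. Nkx2-2 and Rfx6 kept their separation under each of the 3 rescalings. Between the nulliparous libraries alone, Nkx6-1 and Mnx1 were higher in both at 12 months than in both at 3 months, against 21.3% of genes. Lower there were 5 members, Nkx2-2, Neurod1, Pax6, Rfx6 and Myt1, against 15.3% of genes.

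Rfx6 differed most with age. In WT it was at 30.8 FPKM at 3 months, 19.3 at 12 months nulliparous and 28.2 multiparous, and in IKO at 32.5, 26.1 and 27.5. The 12-month values were lower than both 3-month values, and the WT nulliparous value was the lowest of all. Between nulliparous libraries Rfx6 was 0.629-fold in WT and 0.803-fold in IKO. The limma difference over both genotypes was -0.47 (SE 0.15, adjusted p = 0.74, lower in 2 of 2 genotypes), and without the 12-month nulliparous WT library it was -0.28 (SE 0.07, adjusted p = 0.168). Mnx1 went the other way in the nulliparous pairs, from 8.60 to 11.3 FPKM for WT and from 9.20 to 10.2 for IKO (limma difference 0.24, SE 0.11, adjusted p = 0.74; 0.15 without the 12-month nulliparous WT library, adjusted p = 0.326), but its multiparous libraries were at 9.11 and 9.12.

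Of the 10 genes 2 were past a log2 ratio of 0.32 with age in WT, Rfx6 and Mnx1, against 44.2% of 8310 genes, and none was in IKO, against 5.01% of 8209. limma called no member for age, against 0.027% of all genes (3 genes), and Rfx6 was the 1 member at an unadjusted p under 0.05, against 4.33% of genes.

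With parity Isl1 and Nkx6-1 differed in opposite directions in both genotypes. Isl1, a LIM-homeodomain factor shared by all islet hormone cells, was highest in the multiparous libraries. In WT it stood at 51.1 FPKM at 3 months, 58.9 at 12 months nulliparous and 70.1 multiparous, and in IKO at 53.9, 50.4 and 71.1. Both multiparous values lay above all 4 nulliparous ones, as for 12.4% of genes and for no other member. The ratio of multiparous to nulliparous at 12 months was 1.19 in WT and 1.41 in IKO.

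Nkx6-1, which is restricted to beta cells among adult mouse islet cells, was lowest there. Its WT libraries, in the same order, stood at 92.7, 106 and 69.8 FPKM and its IKO libraries at 92.3, 95.8 and 77.6. The multiparous libraries lay below all 4 others, and the ratio at 12 months was 0.658 in WT and 0.810 in IKO. Pdx1 was lowest in the same libraries, at 51.1 and 56.0 FPKM, against 58.7 and 66.1 in the nulliparous libraries of that age and 65.6 and 66.4 in the young ones. With Neurod1 and Myt1, 4 members were below all nulliparous libraries, against 8.88% of genes. In either direction the groups were apart for 5 members and 21.3% of genes. For age, with all libraries at 12 months on one side, they were apart for 4 members and 15.3%. After rescaling without the 20 highest genes only Nkx6-1 of those 4 stayed below, and Pdx1 also lost its separation once the length and GC trend was removed. Isl1 stayed above under each of the 3 rescalings. Rescaling without the 20 highest genes moved the median parity difference of all genes from 0.01 to 0.08, and the share of all genes was not computed under the rescalings.

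Because Isl1 and Nkx6-1 differed in opposite directions, their ratio within a library shows the shift without any scaling between libraries. Nkx6-1 over Isl1 was 1.81 (WT) and 1.72 (IKO) in young mice and 1.80 and 1.90 in older nulliparous mice. It was 0.995 and 1.09 in the multiparous libraries. The 4 nulliparous ratios, from both ages and both genotypes, spanned 1.72 to 1.90, and both multiparous ratios were well below them. The pair was chosen after its values were seen, so the ratio carries no test.

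**Figure D3:**
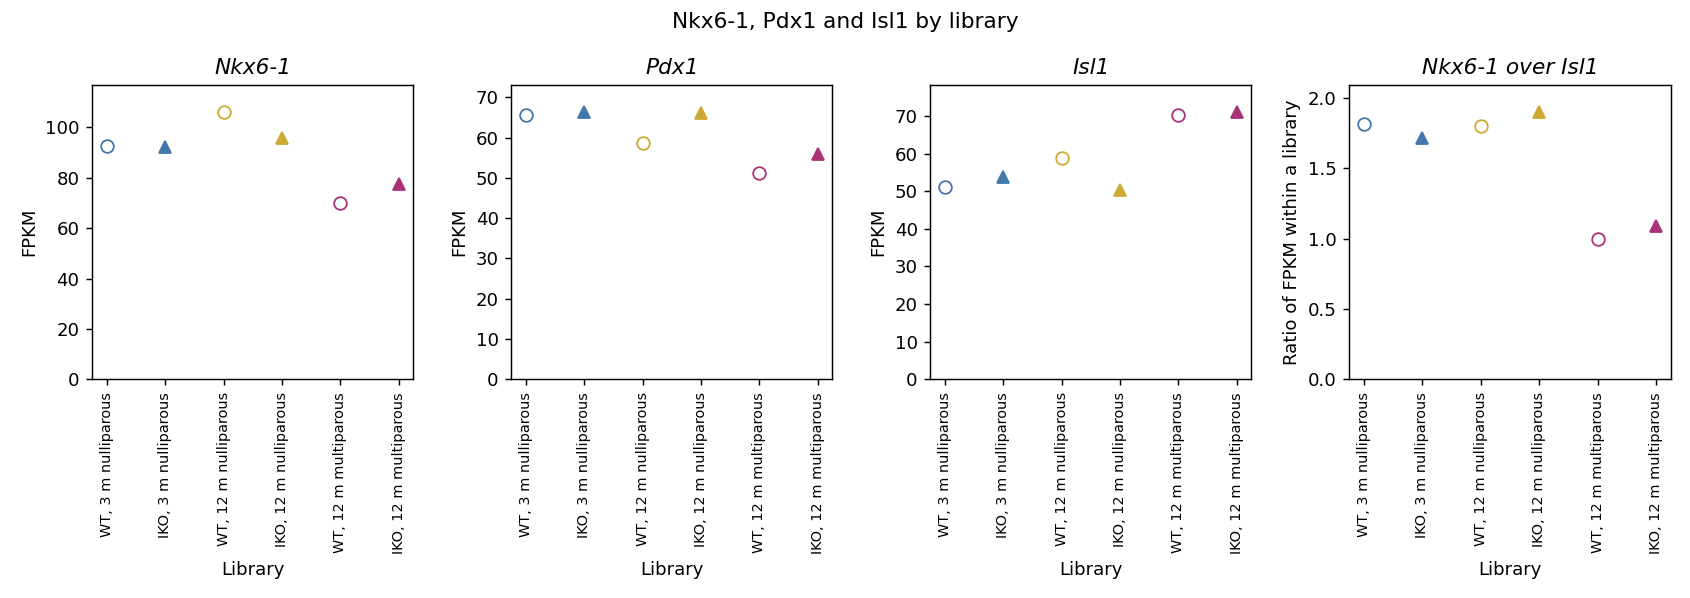
FPKM of Nkx6-1, Pdx1 and Isl1, and the ratio of Nkx6-1 to Isl1 within each library, for the 6 libraries (circles WT, triangles IKO; colours mark the stage; axes start at 0). The ratio is 1.72 to 1.90 in the 4 nulliparous libraries and 0.995 and 1.09 in the multiparous ones.

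With limma, the parity difference was 0.37 for Isl1 (SE 0.13, adjusted p = 0.646, higher in 2 of 2 genotypes) and -0.45 for Nkx6-1 (SE 0.13, adjusted p = 0.611, lower in 2 of 2). Neither was called, nor was any other member, against 0.027% of all genes (3 genes). Both were at an unadjusted p under 0.05, as were 7.40% of genes. Without the 12-month nulliparous WT library, Isl1 was called at a difference of 0.50 (SE 0.06, adjusted p = 0.0355), as 2.67% of genes were (1.39% in that direction), and Nkx6-1 was at -0.34 (adjusted p = 0.0875). In that fit the nulliparous side at 12 months is 1 library, assumed to vary like the others. Without the 12-month nulliparous IKO library instead, Isl1 was at 0.23 (adjusted p = 0.0235) and Nkx6-1 at -0.56 (adjusted p = 0.0038), but 56.8% of all genes were then called (31.8% higher).

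The remaining members differed less evenly with parity. Rfx6 was higher in the multiparous library by 1.46-fold in WT and 1.05-fold in IKO, the WT ratio resting on the low nulliparous value. Insm1 was at 85.3 and 94.0 FPKM in WT mice but at 106.6 and 82.7 in IKO mice, so the 2 genotypes went opposite ways, which was not tested. Mnx1 was lower in both, from 11.3 to 9.11 FPKM for WT and from 10.2 to 9.12 for IKO. Pax6 was slightly higher, from 127 to 141 FPKM for WT and from 137 to 144 for IKO, and Nkx2-2 had ratios of 0.967 and 1.08. Past a log2 ratio of 0.32 were Nkx6-1 and Rfx6 in WT, against 47.5% of 8356 genes, and Isl1 and Insm1 in IKO, against 9.38% of 8209. No member reached 2-fold in any of the 7 pairs. Of all genes compared, 0.111%, 3.88% and 0.221% did between genotypes (3 months, 12 months nulliparous, multiparous), 4.19% (WT) and 0.256% (IKO) with age, and 4.89% and 0.487% with parity.

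**Figure D4:**
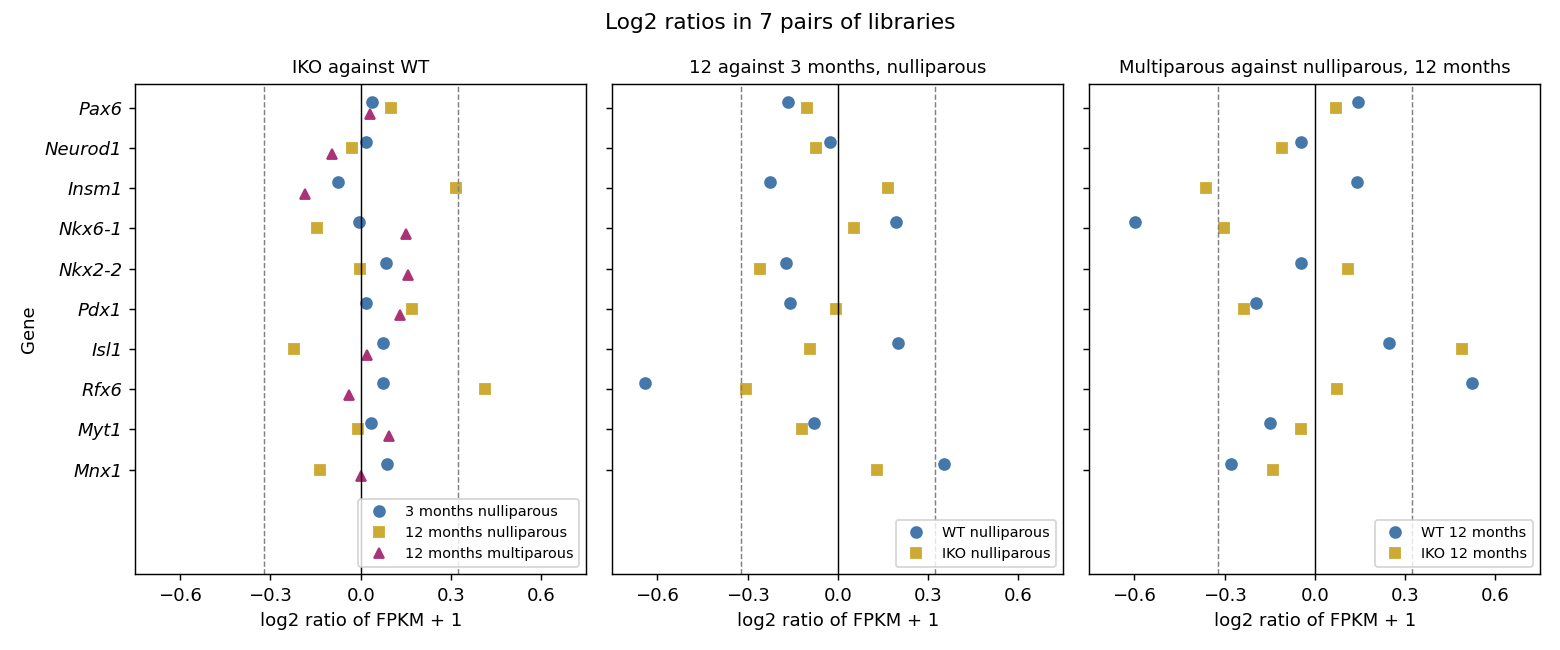
Log2 ratio of FPKM + 1 for each of the 10 genes in 7 pairs of libraries: IKO against WT at 3 stages, 12 against 3 months in each genotype, and multiparous against nulliparous in each genotype; dashed lines mark 0.32 on either side of 0. For parity, Isl1 is on the higher and Nkx6-1 on the lower side in both genotypes.

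Levels of other islet cells' markers stand beside the Isl1 values, since alpha, delta and pancreatic polypeptide cells express Isl1 but not Nkx6-1. The 9 alpha markers summed to 777 FPKM in the WT and 339 in the IKO multiparous library, against 536 to 1124 in the nulliparous ones. The 6 delta markers summed to 232 and 157 FPKM, against 177 to 616. The 3 pancreatic polypeptide and epsilon markers summed to 547 and 663 FPKM, against 1536 in the 12-month nulliparous WT library and 431 to 478 in the other 3 nulliparous libraries. Without that WT library the multiparous sums of these markers were thus the highest, and limma gave 2 of 2 tested markers above 0 for parity (median log2 difference 0.56). With all 6 libraries the direction was reversed, with 0 of 2 above 0 (median -0.405). Isl1 was at 58.9 FPKM where all these sums were highest. In the multiparous IKO library, where Isl1 was highest, the alpha and delta sums were the lowest of the 6 and the pancreatic polypeptide and epsilon sum was the second highest. Acinar markers were lower with parity, summing to 5.79 and 4.49 FPKM against 8.10 to 94.1. Of the 14, limma tested the 8 averaging at least 1 FPKM over all 6 libraries. Some passed only through the 12-month nulliparous WT library, such as Cela3b, at 6.84 FPKM there and 0.14 to 1.31 elsewhere. The direction of such markers was favoured in advance, so the counts are no test. For parity 8 of 8 were below 0 (median log2 difference -2.18, 0 called), also without that library (median -1.48). For age 8 of 8 were above 0 (median 1.58, 0 called, and 0.86 without that library). The part of these other cells in the member differences was not tested.

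Genes whose profile over the 6 libraries was closest to a member were taken from the same genes, less the member itself (8027), by the root mean square difference of centred log2(FPKM + 1). For Isl1 they were Anxa6 (0.037), Bnip3l (0.045) and Sccpdh (0.049). Anxa6, a calcium-dependent membrane-binding annexin, was at 37.8, 37.8, 42.1 and 38.1 FPKM in the nulliparous and at 49.7 and 52.5 in the multiparous libraries. For Nkx6-1 they were Peg3, an imprinted zinc-finger gene (0.049), Klhl32 (0.050) and Maob, a monoamine oxidase gene (0.055), which was at 68.2 to 83.9 FPKM in nulliparous and 56.7 and 62.5 in multiparous libraries. For Rfx6 they were Ccdc55, Tia1 and Ubp1 (0.039 each), all lowest in the 12-month nulliparous WT library.

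Among 36 other islet lineage factors, 18 had a mean of at least 1 FPKM and limma called none for genotype, age or parity. Mafa, which activates insulin transcription in mature beta cells, was at 79.1, 102 and 46.7 FPKM (WT) and 70.8, 88.5 and 50.3 (IKO), in the order 3 months, 12 months nulliparous and multiparous (parity difference -0.96, SE 0.13, adjusted p = 0.334, lower in 2 of 2 genotypes; -0.87, adjusted p = 0.0327, without the 12-month nulliparous WT library). The nulliparous libraries stayed above both multiparous ones, as with Nkx6-1 and Pdx1, although Pdx1 did not keep this under every rescaling. That held for 4 of the 13 factors of this list averaging at least 5 FPKM (Mafa, Sox4, Foxa2 and Tshz1), against 8.88% of genes. Sox4 reached that mean only through its high 12-month nulliparous WT value, which favoured this direction in advance, so it adds no support. Foxa2, a pioneer factor upstream of Pdx1, was at 29.7, 26.7 and 24.7 FPKM (WT) and 29.1, 30.5 and 26.3 (IKO). Sox4, a factor of endocrine differentiation, was at 14.6 FPKM in the 12-month nulliparous WT library and at 3.28 to 5.48 elsewhere. The median parity log2 difference was 0.03 over the 18 factors and -0.09 over the 10 members, against 0.01 over all genes. Without the 12-month nulliparous WT library the median over the 18 factors was -0.06, with 1 called, Mafa.

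Of 24 partners and cofactors 23 were tested and none was called in any contrast. Ldb1, the adaptor that Isl1 binds, was at 33.1, 38.8 and 29.3 FPKM (WT) and 32.5, 31.8 and 30.6 (IKO), and its co-adaptor Ssbp3 at 22.3, 21.9 and 26.0 and at 22.4, 23.6 and 24.7. Ldb1 was thus lowest and Ssbp3 highest in the multiparous libraries. Of the 21 partners and cofactors averaging at least 5 FPKM, 5 were lower in both multiparous libraries than in all 4 nulliparous ones and 3 higher. Among all genes these shares were 8.88% and 12.4%. Kdm1a, which Insm1 recruits, ranged over 30.0 to 33.9 FPKM. Tcf3, which encodes the E-protein partner of NeuroD1, was at 9.19 to 12.3 FPKM in nulliparous and at 8.19 and 8.84 in multiparous libraries. Id2, an inhibitor of helix-loop-helix proteins, was at 20.9 to 27.4 FPKM in nulliparous and at 35.7 and 31.9 in multiparous libraries (parity difference 0.38, SE 0.16, adjusted p = 0.646; 0.34, adjusted p = 0.298, without the 12-month nulliparous WT library).

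Of 29 beta cell genes that members bind or control, 25 were tested and none was called, or 2 for parity without the 12-month nulliparous WT library. For parity 18 were below and 7 above 0, with a median log2 difference of -0.13 against 0.01 for all genes. Between the IKO libraries 5 were lower and 1 higher past a log2 ratio of 0.32, of 23 compared, against 397 lower and 373 higher of 8209 genes (9.38%), with a median log2 ratio of -0.09 against -0.02 over all genes. Between the WT libraries 8 were lower and 2 higher of 24, against 47.5% of all genes in either direction. Slc2a2, the glucose transporter gene and a Pdx1 target, was at 65.1, 59.1 and 37.5 FPKM for WT and 63.1, 78.8 and 51.3 for IKO (parity difference -0.63, SE 0.16, adjusted p = 0.589; -0.73, adjusted p = 0.084, without the 12-month nulliparous WT library). Trpm5, a cation channel gene, was at 6.18, 8.86 and 3.94 FPKM and at 4.98, 4.83 and 3.33. Mafa belongs to this list as well, and so does the member Nkx2-2. The 7 beta cell markers with values add no further genes. Nkx6-1 and Pdx1 are members, and Mafa, Slc2a2, Ucn3, G6pc2 and Slc30a8 are in this list. For parity 6 of the 7 markers were below and 1 above 0 (median log2 difference -0.45, 0 called), which is no separate support. Without the 12-month nulliparous WT library all 7 were below 0 (median -0.45). Slc30a8, one of them, was at 163, 215 and 122 FPKM (WT) and 169, 208 and 162 (IKO).

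Pax6os1, transcribed opposite to Pax6 and overlapping its start in the deposited loci, was at 12.9 FPKM in the 12-month nulliparous WT library and at 5.50 to 6.19 in the other 5, while Pax6 was lowest in that library. The libraries were directional, but whether the authors counted by strand is not given in the sources used here, so reads of these overlapping genes may not be fully separated.

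By position in mm10, 5 of the 10 genes lie on chromosome 2. These are Neurod1 (79452641 to 79456636), Pax6 (105668896 to 105697364), Insm1 (146221997 to 146225018), Nkx2-2 (147177546 to 147186402) and Myt1 (181763332 to 181827775). On chromosome 5 lie Mnx1 (29473823 to 29478470), Nkx6-1 (101659197 to 101664711) and Pdx1 (147270131 to 147275149). Rfx6 lies on chromosome 10 (51677760 to 51730429) and Isl1 on chromosome 13 (116298270 to 116309688). The neighbours Insm1 and Nkx2-2 on chromosome 2 had unlike profiles, with Insm1 highest in the 12-month nulliparous IKO library and Nkx2-2 in the 3-month IKO library.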

How the data were processed

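The authors deposited 1 table of FPKM values with 6 columns, 1 per library. The submitters' processing notes list Cuffdiff, Cufflinks, TopHat and build mm10, without versions or roles, and per the labels' protocols the libraries were directional, poly-A selected and read as paired ends. Of 23845 rows with values, 758 rows of 260 symbols at more than 1 locus were left out, as their value could not be tied to 1 place. Deposited starts count from 0, so 1 was added. In pairs of libraries, the log2 ratio of FPKM + 1 was taken over genes with at least 5 FPKM in 1 of both and listed at 0 in neither, with no test. limma 3.58.1 (R 4.3.3), with empirical Bayes moderation and a trend, was fitted to log2(FPKM + 1) of 11131 genes averaging at least 1 FPKM, with Benjamini-Hochberg adjustment over all of them. On simulated data with a like spread in every library, it recovered 100% of 2-fold genotype differences, with 13 false calls among 213; the deposited libraries do not spread alike, and there even the deleted gene missed the threshold, so that recovery does not carry over. With 1 library a group, the p-values rest on how libraries scatter around the additive fit. Adding 1 understates changes of low genes, and a rise of a few abundant genes lowers the FPKM of the rest. For the trend removal, length and GC of the longest GENCODE transcript were known for 99.2% of tested genes. Named genes were the 10 members, Foxo1, up to 4 genes per other list and contrast with the largest differences among those averaging at least 5 FPKM, and the nearest 3 profiles of the 3 most variable members. Other list genes named for their role (Neurog3, Pax4, Ptf1a, Foxa2, Nkx6-2, Nkx6-3, Neurod2, Myt1l, Ldb1, Ssbp3, Kdm1a and Tcf3) were chosen after their values were seen. Members and lists were chosen with earlier results of these data known. Alternatives were the pseudocount, the filter, 3 rescalings (median ratio, without the 20 highest genes, length and GC trend removed), leaving out genes listed at 0 and leaving out each library; counts of members whose groups do not overlap under the rescalings were added after seeing the data.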

Additional observations from a re-analysis of the deposited data

How the results depend on the processing

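No paired analysis was possible because each group is 1 library and the labels share no replicate numbers. limma called no gene for genotype and 3 each for age and parity, and these counts moved with the settings. A pseudocount of 0.1 FPKM gave 1 genotype call. Leaving out genes listed at 0 gave 0 calls for age and 0 for parity. For parity, no filter on low values and a mean of at least 5 FPKM each gave 0, and rescaling without the 20 highest genes gave 1. Leaving out 1 library in turn gave 2 to 9 genotype calls, 17 to 6039 age calls and 20 to 6319 parity calls. The highest age and parity counts came without the 12-month nulliparous IKO library, when that stage rests on the WT library that stood apart, and without that WT library the counts were 43 and 297. Of the members' log2 differences under all alternatives, 382 kept their direction and side of the threshold, 10 passed it and 28 turned their sign; the 10 were all in fits without 1 of the 12-month nulliparous libraries.

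Rescaling without the 20 highest genes divided the 12-month nulliparous WT library by 1.109 and the others by 0.9637 to 0.9882. It moved the members' median log2 ratio to 0.17 between genotypes at 12 months nulliparous, -0.31 for age in WT and 0.12 for parity in WT. It turned the genotype differences of Nkx6-1 (0.050), Neurod1 (0.015), Isl1 (0.0071) and Mnx1 (0.030), the age difference of Isl1 (-0.049) and the parity difference of Neurod1 (0.0016). Removing the trend with length and GC turned those of Nkx6-1 (0.0055), Myt1 (-0.0072) and Mnx1 (0.015) for genotype and of Insm1 (0.0197) for parity. With 1 library left out, genotype differences spanned -0.076 to 0.073 for Nkx6-1, -0.10 to 0.046 for Isl1, -0.13 to 0.12 for Insm1 and -0.068 to 0.044 for Mnx1. Age differences spanned -0.080 to 0.19 for Isl1 and -0.25 to 0.19 for Insm1. Parity differences spanned -0.030 to 0.093 for Nkx2-2 and -0.34 to 0.11 for Insm1. The cause of these moves was not tested. For parity, Isl1 stayed between 0.23 and 0.50 and Nkx6-1 between -0.56 and -0.34 with 1 library left out. Leaving out either 3-month library could not change these differences, which stayed at 0.37 and -0.45, so the span is no separate support. With 1 library a group and depth unknown, differences of the size seen between genotypes could not be resolved.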
